A study of Mus musculus with 8 samples.

Results

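Osr1, Osr2, Tcf7l2, Foxf1, Foxf2, Foxd1, Foxd2, Foxc1, Foxc2 and Foxp1 encode transcription factors used as marks or regulators of connective tissue cells in embryonic limbs and faces. The genes were taken by name: every probe set of the array whose annotation names 1 of these genes and no other gene was used. All 10 genes were found, with 25 probe sets among 45101 on the array, and they were read against 18193 genes measured in the same way. RNA of whole tongue buds, the embryonic tissue that grows into the tongue, was measured on one-colour Affymetrix arrays at embryonic day 13.5. The 4 control samples were Alk5 fl/fl, meaning that both copies of Alk5 carry recombination sites, and the 4 mutant samples were Wnt1-Cre;Alk5 fl/fl, all on strain C57BL/6J. Wnt1-Cre expresses a recombinase in cells of the neural crest and removes Alk5 (gene symbol Tgfbr1), the type I receptor for TGF-beta, from them and their descendants, while muscle precursors, endothelium and epithelium of the bud keep it. No group carried Wnt1-Cre without the floxed alleles, so the transgene and the loss of the receptor cannot be told apart. The labels give neither the sex nor the litter of the embryos, so p-values measure only the spread between these samples, which may be technical.

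The odd-skipped factors Osr1 and Osr2 are zinc-finger proteins of irregular connective tissue. Tcf7l2, known also as Tcf4, is a DNA-binding partner of beta-catenin and marks fibroblasts within muscle. The forkhead factors share a winged-helix DNA-binding domain. Foxf1, Foxf2, Foxd1 and Foxd2 are expressed in facial mesenchyme, where Hedgehog signals from the epithelium promote them. Foxc1 and Foxc2 act in mesenchyme, blood vessels and skeleton, and Foxp1 is a repressor expressed in many tissues, among them muscle and neurons.

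The arrays differed little in scale, with medians of log2 values from 5.96 to 6.01, and Pearson correlations between arrays across probe sets were 0.990 to 0.998. The first principal component over genes held 45.2% of the variance and parted the groups, and the second, with 18.7%, set control 1 (18.2) and mutant 1 (-15.2) farthest apart. Control 3 had a mean log2 value of 3.09 over 3 Y-linked genes, against 8.44 to 8.73 on the other arrays, so the controls include 1 array low in Y-linked RNA and the mutants none, and results are also given without controls 1 and 3. Tgfbr1 itself was higher in mutants by 0.39 on its brightest probe set (SE 0.0581, limma adjusted p = 0.00342), and since the position of its probes relative to the floxed part is not given in the sources used here, it does not check the labels. Marker lists of the bud's tissues were above the array medians for 10 of 10 muscle, 10 of 10 epithelial, 9 of 10 endothelial and 8 of 10 neural crest mesenchyme genes.

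Foxc2 and Foxp1 rose in mutant tongue buds, and none of the other 8 genes passed the test. Foxc2 rose 2.43-fold and Foxp1 1.46-fold on the probe set with the highest mean. Foxc1 had a mean 2.03 times as high in mutants but varied so much between arrays that it did not pass. Osr1, Foxd1, Foxd2 and Foxf1 had mutant means above control means with overlapping values, and Tcf7l2, Foxf2 and Osr2 differed little (0.060, 0.081 and -0.062 on the log2 scale). Genes were compared with limma over all 18193 genes, and a gene passed at a Benjamini-Hochberg adjusted p under 0.05. Of the 10 genes 2 passed, both higher, where 4.2% of all genes passed as higher and 5.52% as lower. In the same 2 genes the groups did not overlap, a separation with mutants higher that 8.92% of all genes showed. The mutant mean was the higher one in 9 of the 10 genes, with a median log2 change of 0.42, against 46.6% of all genes and a median of -0.011. Fewer cells of a type and less RNA per cell cannot be told apart in RNA of a whole bud.

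**Figure D1:**
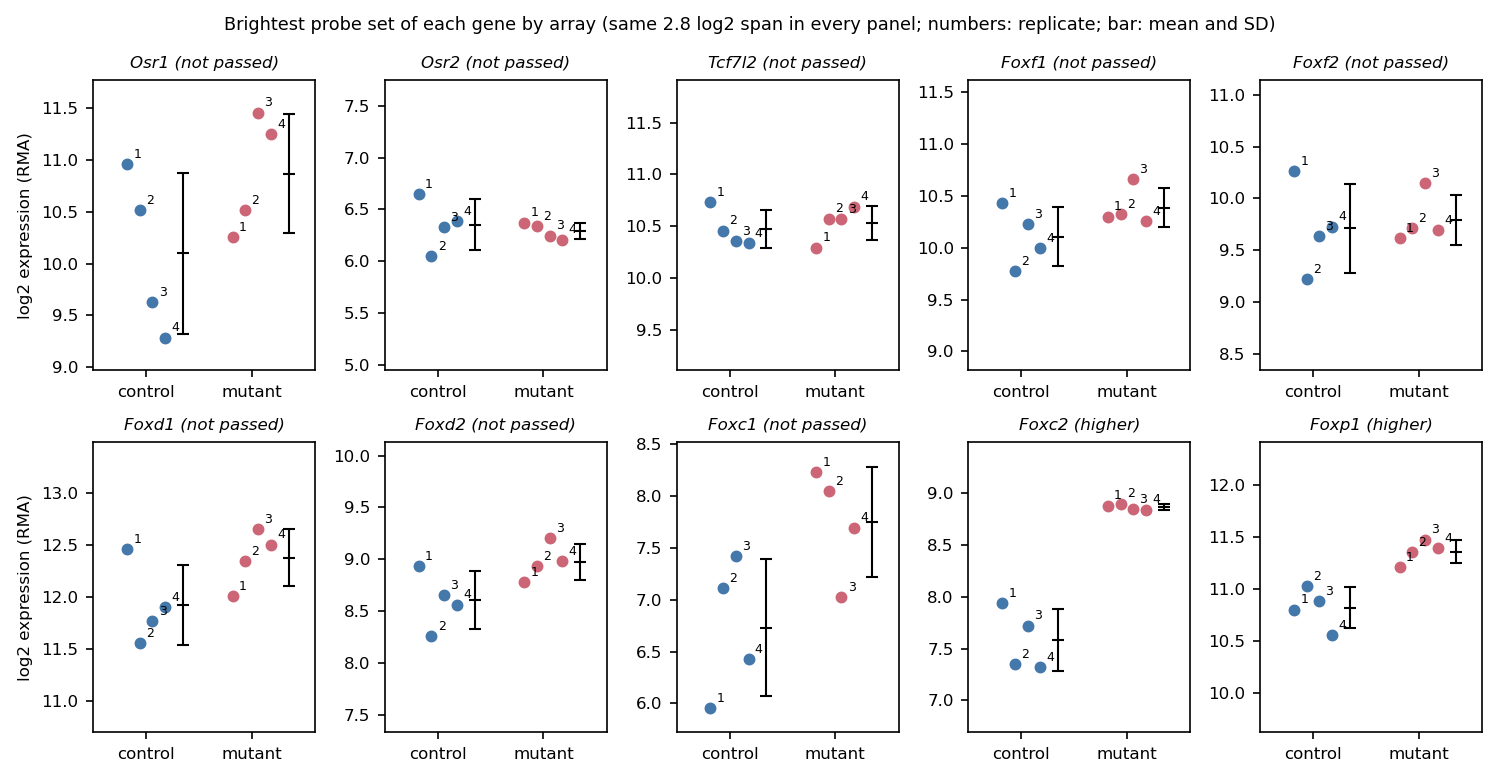
Log2 expression of the brightest probe set of each gene on the 4 control and 4 mutant arrays, each point labelled with its replicate number, with the group mean and SD as a bar. The panels share the same span but not the same zero. The 4 mutant values of Foxc2 lie between 8.84 and 8.90 and those of Foxp1 between 11.21 and 11.48, above every control, while Osr1 and Foxc1 spread widely within each group.

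Foxc2, a forkhead factor needed for lymphatic valves, the aortic arch and parts of the skeleton, was measured by 1 probe set, 1416693_at. It gave 7.94, 7.35, 7.72 and 7.32 on controls 1 to 4. The mutants, in the same order, gave 8.88, 8.90, 8.84 and 8.84. The groups did not overlap, and the mutants lay closer together than the controls. Mutants averaged 8.86 ± 0.028 and controls 7.58 ± 0.30 (SD, n = 4 each), which gives a difference of 1.28 on the log2 scale (SE 0.127, 95% confidence interval 1.00 to 1.57, limma adjusted p = 0.000481). It passed in each of 17 alternatives, with changes of 1.20 to 1.53. The genes with the most similar pattern over the 8 arrays were found by root mean square difference after each gene's own mean was subtracted. They were Hsd11b2, which inactivates glucocorticoids (0.149), the phosphatase gene Dusp9 (0.177) and Trim71, an RNA-binding repressor (0.188).

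Foxc1, the close relative of Foxc2 with overlapping roles in vessels, meninges and eye, had 2 probe sets. The brighter, 1419486_at, gave 5.96, 7.11, 7.42 and 6.43 on controls 1 to 4. The mutants, in the same order, gave 8.23, 8.05, 7.02 and 7.69. Mutant 3 lay below controls 2 and 3, so the groups overlapped. Mutants averaged 7.75 ± 0.53 and controls 6.73 ± 0.66 (SD, n = 4 each), which gives a difference of 1.02 on the log2 scale (SE 0.342, interval 0.25 to 1.79, adjusted p = 0.0998 in limma). The dimmer set, 1419485_at, changed by 1.21 (adjusted p = 0.0604 over all probe sets in limma), with controls from 5.60 to 6.90 and mutants from 6.82 to 7.71. It passed without control 3 (1.44, limma adjusted p = 0.0342) and also when dim probe sets were left out of the fit (1.21, 0.0453). The spread of Foxc1 within groups, an SD of 0.601, was larger than that of 99.6% of genes, against a median SD of 0.103. The changes of Foxc1 and Foxc2 differed by -0.26 (Foxc1 minus Foxc2), and an exact two-sided permutation test of that difference, 4 arrays against 4, gave p = 0.571 (0.571 adjusted over 4 pairs of relatives). The smallest p that this test allows is 0.0286. Without control 1 the changes lay farther apart, at 0.76 for Foxc1 and 1.40 for Foxc2.

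The order of the arrays in the brighter Foxc1 set was that of the endothelial markers, but that of the dimmer set was not, in either group. The mean over 10 endothelial markers was 7.97, 8.06, 8.09 and 8.05 for controls 1 to 4. For the mutants, in the same order, it was 8.47, 8.35, 8.20 and 8.28. Within each group this ranks the arrays as the brighter Foxc1 set does, from control 1 to control 3 and from mutant 3 to mutant 1. Of the 10 endothelial markers 3 rose in mutants (Cdh5 by 0.51, Pecam1 by 0.34, Esam by 0.18), and all 10 had a higher mutant mean. Smooth muscle and pericyte, cartilage, and Schwann and glial markers ranked the mutants in the same order as that set but not the controls. Their means were 8.45 to 8.74 in controls and 8.14 to 8.59 in mutants for smooth muscle and pericytes, with 3 of 10 lower. Cartilage means were 6.20 to 6.50 and 6.23 to 6.41, and Schwann and glial means 7.38 to 7.61 and 6.98 to 7.28. The dimmer Foxc1 set, 1419485_at, ranked the arrays of both groups as the macrophage and leukocyte markers did. The means of that list were 7.71 to 7.85 in controls and 7.18 to 7.65 in mutants, with 4 of 10 lower. Controls 2 and 3 both had a mean of 7.847 on it when rounded, and mutants 2 and 4 had 7.38 and 7.389. The match therefore rests on very small differences. This dimmer set also ranked the controls as the cartilage markers did and the mutants as the neuronal markers did. The Foxc2 values did not follow any of the 9 marker lists in this way in either group. These matches in order were noticed after the values were seen, and the part of endothelial or other cells in the Foxc1 and Foxc2 values was not tested. Orders of 4 arrays can match by chance, and many sets and lists were compared.

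**Figure D2:**
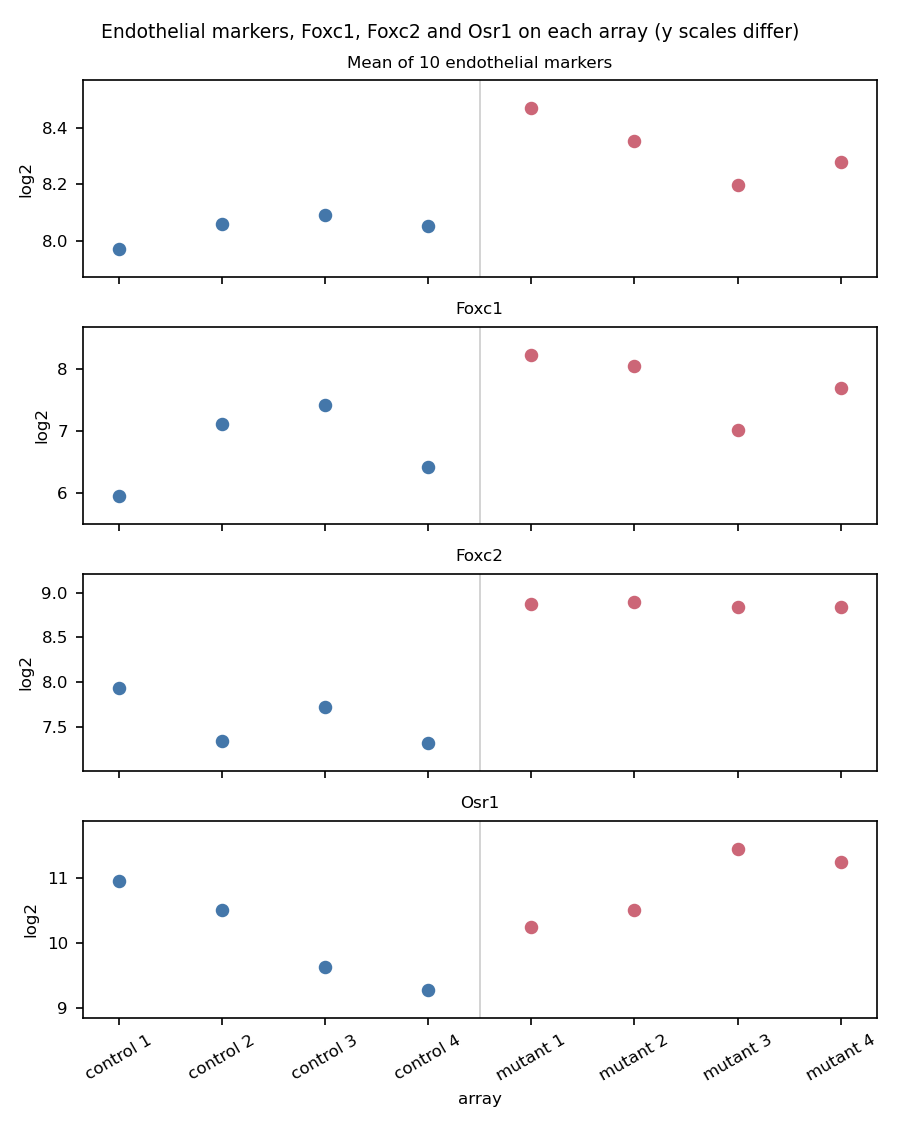
Log2 values on each of the 8 arrays, controls in blue and mutants in red, for the mean of 10 endothelial markers and the brightest probe sets of Foxc1, Foxc2 and Osr1 from top to bottom, with a y scale of its own for each panel. The Foxc1 set shown ranks the arrays of each group as the endothelial markers do. Its dimmer set does not, and ranks them as the macrophage and leukocyte markers do, though these were level in controls 2 and 3 (both 7.847 when rounded). Foxc2 is level across mutants at 8.84 to 8.90, and Osr1 ranks the mutants the opposite way from the Foxc1 set shown.

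Foxp1 was the member with the most probe sets, 8, and 6 of them had means above the array medians. The brightest, 1435222_at, gave 10.80, 11.03, 10.89 and 10.56 on controls 1 to 4. The mutants, in the same order, gave 11.21, 11.35, 11.48 and 11.40. All mutants were above all controls. Mutants averaged 11.36 ± 0.11 and controls 10.82 ± 0.20 (SD, n = 4 each), which gives a difference of 0.54 on the log2 scale (SE 0.0997, interval 0.32 to 0.77, limma adjusted p = 0.00906). As a gene Foxp1 passed with any 1 array left out (0.45 to 0.61), but without controls 1 and 3 together it changed by 0.57 with a limma adjusted p of 0.0516. Phactr2, a regulator of phosphatase and actin (0.0689), the scaffold gene Dlg2 (0.0902) and Aard (0.0977) had the most similar pattern by root mean square difference.

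The 6 brighter Foxp1 probe sets changed by 0.50 to 0.61, and 4 of them passed in the limma fit over all 34945 probe sets that name 1 gene. Set 1421141_a_at was 9.33 to 9.63 in controls and 9.92 to 10.20 in mutants, a change of 0.61 (SE 0.0851, adjusted p = 0.00434). Sets 1421142_s_at and 1435221_at changed by 0.50 and 0.53. Sets 1455242_at (0.59, adjusted p = 0.0759) and 1421140_a_at (0.53, 0.058) did not pass. The set 1435221_at lost its call without control 4, mutant 1, mutant 2 or mutant 3 (0.50 to 0.54), and 1435222_at, tested among all probe sets, lost its call without mutant 3 (0.50) or mutant 4 (0.53). Without controls 1 and 3 both 1435222_at (0.57) and 1421142_s_at (0.47) lost it. Conversely 1455242_at passed without mutant 1 (0.70) and 1421140_a_at without control 2 (0.64).

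The 2 dim sets of Foxp1 went different ways. 1438802_at was 3.24 to 3.87 in controls and 3.85 to 4.01 in mutants, a change of 0.33 (limma adjusted p = 0.168). 1443258_at was 4.45 to 4.90 in controls and 4.41 to 4.54 in mutants, a change of -0.21 (adjusted p = 0.248 in limma), and it passed as lower without control 1 (-0.29, 0.0447). Its change differed from that of the brightest set by -0.75, with an exact permutation p of 0.0286, which is 0.429 after adjustment over the 15 such pairs of probe sets. None of the 15 passed after adjustment. Which transcripts of Foxp1 each set reads is not given in the sources used here.

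RefSeq gives Foxp1 several start sites, and the probe sets are not tied to any of them. All Foxp1 windows given in the sources used here are therefore shown, and further promoters may exist. Each runs from 250 bases before to 50 bases after a start site on GRCm38.p6, 5′ to 3′ on the minus strand, from chr6:99520944-99521243, chr6:99266466-99266765 and chr6:99028249-99028548 in that order.
Foxp1 window 1: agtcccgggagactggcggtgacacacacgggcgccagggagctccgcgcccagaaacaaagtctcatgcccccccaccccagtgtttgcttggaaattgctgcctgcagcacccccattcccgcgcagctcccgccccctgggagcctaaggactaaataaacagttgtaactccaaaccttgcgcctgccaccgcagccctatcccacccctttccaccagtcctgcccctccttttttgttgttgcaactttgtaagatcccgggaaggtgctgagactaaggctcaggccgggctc
Foxp1 window 2: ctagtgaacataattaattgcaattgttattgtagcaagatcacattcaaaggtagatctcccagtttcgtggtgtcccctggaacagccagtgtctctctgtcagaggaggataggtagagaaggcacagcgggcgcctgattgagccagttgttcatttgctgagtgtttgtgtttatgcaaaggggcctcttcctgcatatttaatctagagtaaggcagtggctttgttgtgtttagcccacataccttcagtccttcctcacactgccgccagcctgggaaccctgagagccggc
Foxp1 window 3: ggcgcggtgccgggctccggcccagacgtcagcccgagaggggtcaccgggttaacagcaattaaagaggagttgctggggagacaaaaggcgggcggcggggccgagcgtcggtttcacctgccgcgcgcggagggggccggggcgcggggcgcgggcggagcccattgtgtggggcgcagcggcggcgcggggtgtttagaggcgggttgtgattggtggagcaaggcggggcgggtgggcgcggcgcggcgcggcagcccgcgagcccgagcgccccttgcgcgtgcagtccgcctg
The GC content of the windows was 60.3%, 48.7% and 75.3%. They were searched on both strands for a forkhead motif (TGTTTAC), a GLI motif (GACCACCCA), a TCF/LEF motif (CTTTGAT), and a short and a palindromic SMAD motif (CAGACA and GTCTAGAC), and none was found in these letters.

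**Figure D3:**
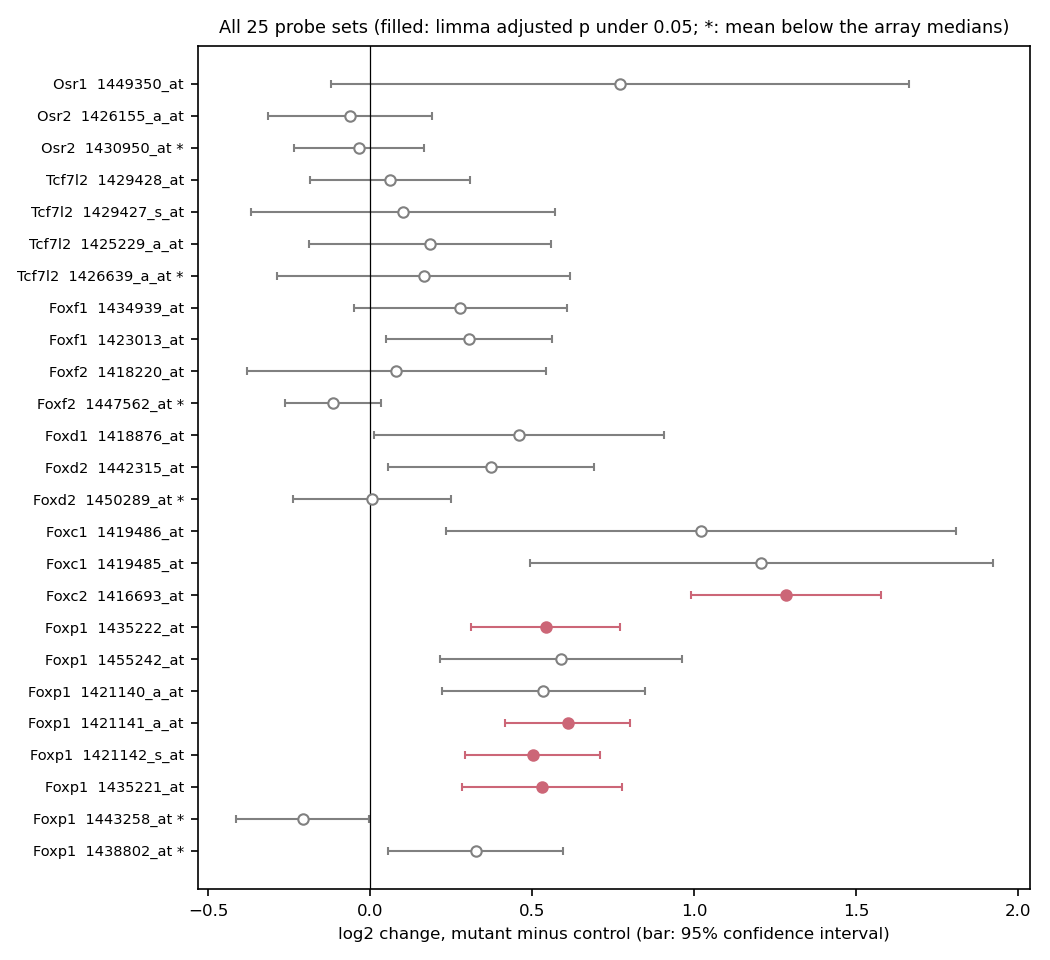
Log2 change (mutant minus control) of all 25 probe sets with its 95% confidence interval as a bar, filled where the limma adjusted p over all probe sets is under 0.05 and starred where the mean lies below the array medians. Foxc2 and 4 sets of Foxp1 are filled, both Foxc1 sets have large changes with wide intervals, and the Tcf7l2 and Osr2 intervals all span 0.

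Among the 25 probe sets 5 passed, all higher, where 2.69% of all such probe sets passed as higher and 3.25% as lower. The groups did not overlap in 6, all higher in mutants, against 7.82% of probe sets that were separated with mutants higher. The sixth was 1423013_at of Foxf1, below. For 14 of the 25 the unadjusted p in limma was under 0.05, with 6855 of 34945 probe sets at that level overall. These counts rest largely on Foxp1, and sets of the same gene are not independent. Apart from the Foxc2 set, all sets that passed were of Foxp1. The 14 include every Foxp1 set, among them 1443258_at, which was lower in mutants (-0.21).

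Osr1, which is required for connective tissue that patterns muscle in the limb, was the most variable member. Its only set, 1449350_at, gave 10.96, 10.51, 9.63 and 9.29 on controls 1 to 4. The mutants, in the same order, gave 10.25, 10.52, 11.46 and 11.25. Controls 1 and 2 lay within the range of the mutants, and only mutants 3 and 4 exceeded every control. Mutants averaged 10.87 ± 0.57 and controls 10.10 ± 0.77 (SD, n = 4 each), which gives a difference of 0.77 on the log2 scale (interval -0.099 to 1.64, limma adjusted p = 0.267). The SD within groups, 0.681, exceeded that of 99.8% of genes. With 1 array left out the change ran from 0.50 to 1.06, and no alternative brought it past the threshold. Along the second principal component the mutants stood at -15.2, -3.98, 7.05 and 5.32, the order of their Osr1 values. The controls stood at 18.2, 3.41, -8.20 and -6.55, which is not the order of their Osr1 values. The brightest sets of Foxd1, Foxd2 and Foxp1 ranked the mutants in the same order as this component too.

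Osr2, known for its part in palate growth, was low on this array. The brighter of its probe sets, 1426155_a_at, gave 6.65, 6.05, 6.33 and 6.39 on controls 1 to 4. Mutants 1 to 4 gave 6.37, 6.34, 6.25 and 6.21. All mutants lay inside the control range. The log2 change was -0.062 (interval -0.31 to 0.18, limma adjusted p = 0.787), and the other set, 1430950_at, had a mean below the array medians and changed by -0.035. The changes of Osr1 and Osr2 differed by 0.83, with an exact permutation p of 0.171 (0.343 adjusted over 4 pairs).

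Tcf7l2 had 4 probe sets with changes of 0.060 to 0.18, none of which passed. The brightest, 1429428_at, gave 10.73, 10.46, 10.36 and 10.34 on controls 1 to 4. Mutants 1 to 4 gave 10.29, 10.57, 10.57 and 10.69. The highest value was that of a control and the lowest that of a mutant. The log2 change was 0.060 (interval -0.18 to 0.30, limma adjusted p = 0.787), which bounds a rise of this set at 0.30. The set 1429427_s_at spread more widely, from 8.77 to 9.71 in controls and 8.91 to 9.60 in mutants, with an interval of -0.37 to 0.57. Osr1 and the brightest Tcf7l2 set ranked the controls alike, from control 1 down to control 4, but not the mutants.

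Foxf1, which acts in mesenchyme next to epithelia and in vessels, differed by similar amounts on its 2 probe sets. The set 1434939_at gave 10.43, 9.78, 10.23 and 9.99 on controls 1 to 4. Mutants 1 to 4 gave 10.30, 10.33, 10.66 and 10.26. Control 1 exceeded all but 1 of the mutants. The change was 0.28 (interval -0.041 to 0.60, limma adjusted p = 0.275). It was 0.17 without control 2 and 0.19 without mutant 3, and 0.50 without controls 1 and 3 (limma adjusted p = 0.0593), and it passed in none of the alternatives. The set 1423013_at changed by 0.30 with no overlap, from 6.95 to 7.41 in controls and from 7.42 to 7.74 in mutants, but did not pass (adjusted p = 0.173 in limma).

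Foxf2, a partner of Foxf1 in palate and tongue mesenchyme, was read by 1418220_at at 10.26, 9.22, 9.63 and 9.73 in controls 1 to 4. Mutants 1 to 4 gave 9.62, 9.71, 10.15 and 9.69. The mutants lay within the range of the controls, and the change was 0.081 (interval -0.37 to 0.53, limma adjusted p = 0.850). Its other set, 1447562_at, was dim at 3.77 to 4.06 and changed by -0.12. The changes of Foxf1 and Foxf2 differed by 0.20, with an exact permutation p of 0.171 (0.343 adjusted).

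Foxd1, a factor of facial and kidney stroma, was bright on every array. Its set 1418876_at gave 12.46, 11.56, 11.76 and 11.90 on controls 1 to 4. The mutants, in the same order, gave 12.01, 12.35, 12.65 and 12.51. Every mutant exceeded controls 2, 3 and 4, and control 1 lay among the mutants. Mutants averaged 12.38 ± 0.27 and controls 11.92 ± 0.39 (SD, n = 4 each), which gives a difference of 0.46 on the log2 scale (SE 0.194, interval 0.024 to 0.90, limma adjusted p = 0.186). Without control 1 Foxd1 passed, at 0.64 (limma adjusted p = 0.0343), and without controls 1 and 3 it did not (0.65, 0.0775). Of the member promoter windows given by RefSeq (9 windows of 6 genes), that of Foxd1, at chr13:98353995-98354294 on the plus strand of GRCm38.p6, was the only one with a match to any of these motifs. The capitals mark the short SMAD motif, 24 bases before the start site.
Foxd1 window: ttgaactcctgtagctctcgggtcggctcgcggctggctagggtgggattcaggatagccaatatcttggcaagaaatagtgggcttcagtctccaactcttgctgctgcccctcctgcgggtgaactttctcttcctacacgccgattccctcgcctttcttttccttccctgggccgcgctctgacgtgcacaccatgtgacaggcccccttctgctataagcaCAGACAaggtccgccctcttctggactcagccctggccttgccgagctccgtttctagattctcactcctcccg
This motif occurs in 21.0% of 32851 windows of this length, the forkhead motif in 3.65%, the TCF/LEF motif in 3.73%, the GLI motif in 0.253% and the palindromic SMAD motif in 0.213%, and the match only describes the sequence.

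Foxd2, the relative of Foxd1, was read by 1442315_at at 8.93, 8.26, 8.65 and 8.56 in controls 1 to 4. Mutants 1 to 4 gave 8.78, 8.93, 9.20 and 8.98. Control 1 again lay among the mutants. The change was 0.37 (SE 0.138, interval 0.063 to 0.68, limma adjusted p = 0.134). Foxd2 passed without control 1 (0.48, limma adjusted p = 0.0441) and without controls 1 and 3 (0.57, 0.0474). Its dimmer set 1450289_at, below the array medians, changed by 0.0054, and the mean of both sets by 0.19. The changes of Foxd1 and Foxd2 differed by 0.087, with an exact permutation p of 0.4 (0.533 adjusted over 4 pairs).

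Without control 1 therefore 4 members passed, Foxc2, Foxp1, Foxd1 and Foxd2, all higher, where 3.42% of all genes passed as higher in that fit. In each of the other 16 alternatives 2 members passed. Control 1 was the highest control for Foxd1 and Foxd2, so leaving it out enlarges their changes. Without controls 1 and 3, Osr1 changed by 0.97, Foxc1 by 0.98, Tcf7l2 by 0.13 and Foxf2 by 0.32, and none of these 4 passed. On their brightest probe sets Osr1, Foxd1, Foxd2 and Foxp1 ranked the mutants alike, lowest in mutant 1 and highest in mutant 3, and Foxc1 ranked them the opposite way. The controls did not share that order. The order was not general to the genes' probe sets: among the other 7 sets of Foxp1 it was found in 1 (1421141_a_at), and the passing set 1435221_at was highest in mutant 1. The other sets of Foxd2 and Foxc1 did not keep it either.

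Several marker lists ran with that order. In the mutants the means of endothelial, smooth muscle and pericyte, cartilage, and Schwann and glial markers ranked the arrays opposite to the brightest sets of Osr1, Foxd1, Foxd2 and Foxp1. These lists shared the same mutant order with each other, and so did these genes, so the matches are not separate observations. Foxd1 was opposite to the smooth muscle and pericyte list and to the Schwann and glial list in the controls as well, and Foxd2 was opposite to the muscle list in the controls. In the controls the brightest sets of Osr2 and Foxf2 were also opposite to the smooth muscle and pericyte list and the Schwann and glial list. Foxf1 was opposite to the muscle list there. Dimmer sets of Tcf7l2 (1429427_s_at, 1425229_a_at, 1426639_a_at) and Foxp1 (1455242_at, 1421140_a_at, 1421142_s_at) ranked the mutants as the epithelial markers did. Some further matches in a single group are not listed. Endothelial means were 7.97 to 8.09 in controls and 8.20 to 8.47 in mutants, with 3 of 10 markers higher. Muscle means were 10.54 to 10.88 and 9.91 to 10.26, with 7 of 10 lower, and neural crest mesenchyme means were 8.85 to 9.07 and 8.90 to 9.06, with 1 of 10 higher and 1 lower. The part of these cells in the member values was not tested, and the orders were noticed after the values were seen.

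**Figure D4:**
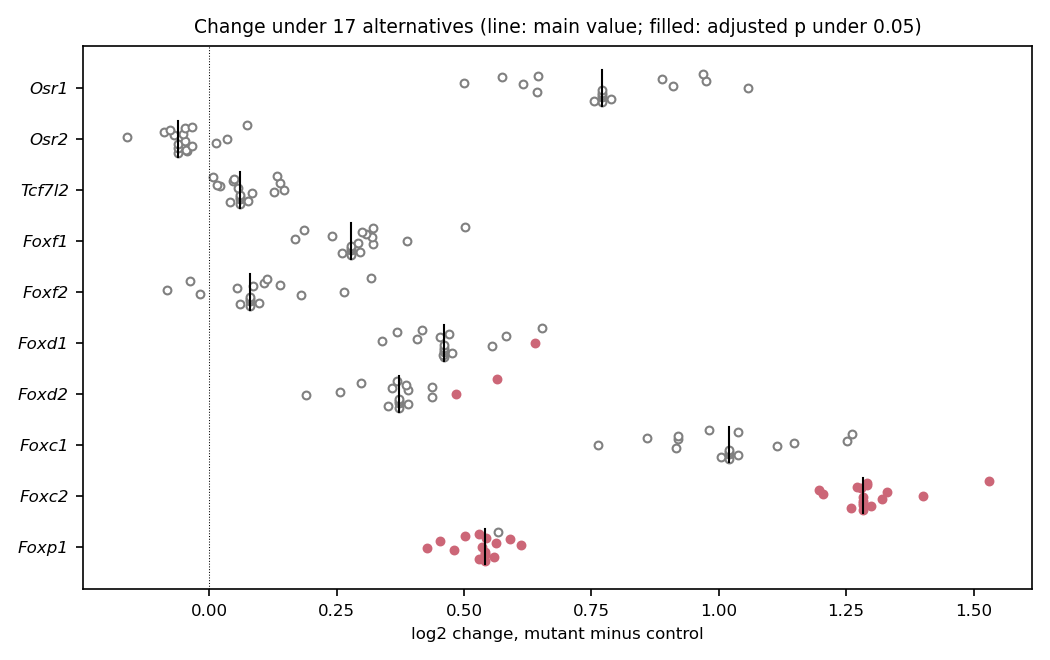
Log2 change of each gene (mutant minus control) under 17 alternatives as points, filled where the limma adjusted p is under 0.05, with the main value as a line. Foxc2 is filled throughout, Foxp1 has 1 open point, and Foxd1 and Foxd2 are filled in 1 and 2 alternatives.

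The other 30 forkhead genes on the array were read the same way, and 1 rose and 2 fell, with a median change of -0.026. Foxp2, the relative of Foxp1 known from speech and motor circuits, rose by 0.78, from 9.51 ± 0.28 to 10.29 ± 0.19 (SD, n = 4 each; SE 0.142, limma adjusted p = 0.00861), and by 0.51 as the mean of all its probe sets. Foxd3, a factor of early neural crest and glial precursors, fell by 0.37 (limma adjusted p = 0.0218). It did not pass without control 2 (-0.33), control 4 (-0.37) or mutant 4 (-0.38), nor without controls 1 and 3 (-0.43). It is itself 1 of 8 measured Schwann and glial markers, of which 4 fell. Foxd4, dim at 4.47 and 4.18, differed by -0.29 and lost its call with any 1 array left out (-0.33 to -0.24). The number that passed was 1 without control 2, control 4 or mutant 4.

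In the genome Foxf1 and Foxc2 lie beside each other with Mthfsd between them and Foxl1 beyond, and Foxf2 lies between Foxq1 and Foxc1, per RefSeq gene order on GRCm38.p6. Foxc2 rose while Mthfsd changed by 0.083, Foxl1 by -0.12 and Foxf1 by 0.28. Foxq1 changed by 0.047 and Gmds, the next gene past Foxc1, by -0.062. Of 12 listed genes from these 2 regions none passed in limma, with 1 at an unadjusted p under 0.05 (Irf4, at -0.28), and Zcchc14 had the next smallest p, at 0.074. Chosen after their values were seen, Mylk4 and Wrnip1, farther on beyond Gmds, fell by 0.58 and 0.35.

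Genes linked to the members as partners, inducers or companions moved in both directions. Of 14 measured Tcf/Lef factors and Wnt targets, where Tcf7l2 acts, 1 rose and 1 fell (median 0.0053). The Wnt inhibitor Nkd2 fell by 0.65 (by 0.38 as the mean of its probe sets), though it did not pass without controls 1 and 3 (-0.51). Dkk1, a secreted Wnt inhibitor, rose by 0.53, a call that was lost with any 1 array left out other than control 1 (0.39 to 0.59), and also without controls 1 and 3 (0.69).

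Of 11 Hedgehog genes 2 rose and 1 fell (median 0.095). Gli3 rose by 0.30, a call kept only without control 2 or mutant 1 when single arrays were dropped (0.26 to 0.36 over all 8 fits), and by 0.18 as the mean of its probe sets. Gli1, a transcription factor and readout of the pathway, rose by 0.37, a call kept only without control 3 or mutant 1 (0.31 to 0.43 over all 8). The co-receptor gene Gas1 fell by 0.37, but did not pass without control 2 (-0.34), mutant 2 (-0.37) or mutant 4 (-0.37). Without controls 1 and 3 neither Gas1 (-0.39) nor Gli3 (0.26) passed. The count for the list fell to 0 without mutant 2 or mutant 4.

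Of 11 genes that act beside Foxf and Osr factors in palate and tongue mesenchyme, 1 rose and 2 fell (median 0.035). Pax9, a paired-box factor of facial mesenchyme, fell from 8.32 to 7.52, by 0.81 (SE 0.106, limma adjusted p = 0.00189), and passed in all 17 alternatives. Sema3e, a guidance cue of axons and vessels, fell by 0.78, but did not pass without control 2 (-0.69) or mutant 4 (-0.75). Fgfr2, the receptor for Fgf10, rose by 0.36 on its brightest set, whose probes may match related transcripts, by 0.24 as the mean of its sets and by 0.0051 with such sets left out (limma adjusted p = 0.987). It lost its call without mutant 2 (0.34) or mutant 3 (0.33), and without controls 1 and 3 (0.37).

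Of 24 genes of muscle connective tissue and fibroblasts 3 rose and 5 fell (median -0.071). The 24 include the gene with the symbol Tcf4 (-0.030, not passed), which is a different gene from Tcf7l2. The mesenchyme factor Prrx1 rose by 0.76 (0.67 without controls 1 and 3, where it did not pass), Tcf21 by 0.67 and the proteoglycan gene Lum by 0.58. Tcf21 rose by 0.28 as the mean of its probe sets. Col14a1, a collagen of fibril surfaces, fell by 1.14, the 3 collagen VI chains Col6a1, Col6a2 and Col6a3 by 0.92, 0.92 and 0.73, and the homeobox gene Meox2 by 0.55. With probe sets that can match other transcripts left out Col14a1 changed by -0.39 (limma adjusted p = 0.0803), and as the mean of its sets it fell by 0.50. When single arrays were dropped, Lum kept its call only without control 1 or control 4 (0.42 to 0.67 over all 8 fits). Meox2 kept it only without control 1 or control 2 (-0.66 to -0.41). Without controls 1 and 3 neither passed, at 0.35 and -0.33. Endothelial markers (change of the mean 0.28) and macrophage and leukocyte markers (-0.38, with 4 of 10 lower) moved on the same arrays, and their part in these lists was not tested.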

How the data were processed

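The authors deposited log2 expression values per probe set, made with RMA per the submitters' processing notes (its version and settings: not given in the sources used here). RMA aligns the arrays' distributions, so shifts common to many genes may be removed. The platform annotation gave the names: 34945 of 45101 name 1 gene, and 932 naming several and 9160 unnamed were left out. Each gene was represented by its probe set with the highest mean. Dim probe sets were kept, and no detection call was used.

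The group difference was fitted in R 4.3.3 by limma 3.58.1 (functions lmFit and eBayes, two-sided, Benjamini-Hochberg, threshold 0.05) over 18193 genes, and again over 34945 probe sets. Of the genes, 1768 passed, 764 higher. SE is moderated. The number of arrays limits the precision. On simulated data for 18193 genes the gene fit found 79 of 100 genes shifted by 0.5 on the log2 scale, all of 100 shifted by 1, and 8 false calls. The shifted genes were drawn at random from all genes, whose median SD within groups was 0.103. The members varied more, with SDs of 0.161 to 0.681, so these shares do not hold for them.

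Named genes were all members, Tgfbr1, and list genes that passed or had the 2 smallest p. The 3 genes most like each member that passed were named too. Only some of the neighbouring genes in the genome and some of the marker genes that passed are named besides. Members, lists and alternatives were chosen with earlier results of these data known. Promoter windows come from RefSeq (GRCm38.p6) and matched 6 of the 10 genes.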

Additional observations from a re-analysis of the deposited data

Results flagged for a closer look

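A value far from the other 3 of its group was found in 8 of 94 groups of 4 arrays examined, where chance gives about 1 in 20. Among the members, control 4 read 5.15 on Osr2 set 1430950_at against 4.75 to 4.80 in the other controls, and mutant 3 read 10.66 on Foxf1 set 1434939_at against 10.26 to 10.33. Control 2 read 6.95 on Foxf1 set 1423013_at against 7.36 to 7.41, and mutant 4 read 4.41 on the dim Foxp1 set 1443258_at against 4.52 to 4.54. Among the related genes, mutant 3 read 7.30 for Dkk1 (others 6.72 to 6.74), mutant 4 read 7.86 for Pax9 (7.37 to 7.45), control 3 read 7.31 for Col14a1 (8.05 to 8.20) and control 1 read 5.06 for Irf4 (5.30 on each other control).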

How the results depend on the processing

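Of the 10 genes 2 passed in the fit with the replicate number as a block, but the numbers do not pair the samples: deviations of same-numbered arrays correlated at -0.40, 0.017, -0.18 and -0.16 across genes. With that replicate block 966 genes passed in all, 2 member probe sets and 12 genes of the related lists (main 1768, 5 and 19). The call of Foxp2 was lost (limma adjusted p = 0.0563), as were those of Foxd4, Dkk1, Gli3, Gli1, Prrx1 and Meox2. With 1 array left out 1143 to 1583 genes, 2 to 4 members, 3 to 6 member probe sets and 10 to 21 related genes passed. Without controls 1 and 3 these were 3 member probe sets and 11 related genes, and without probe sets that can match other transcripts 3 member probe sets. These fits hold fewer arrays or features, and the cause was not tested. Signs turned only for small differences that did not pass: Osr2 with array weights (0.014; its sets 1426155_a_at 0.011 and 1430950_at 0.016) and without controls 1 and 3 (0.073), Foxf2 as the mean of its sets (-0.017), and Foxd2 set 1450289_at without controls 1 and 3 (-0.13). With 1 array left out the ranges that cross 0 were -0.16 to 0.036 for Osr2 (1426155_a_at), -0.074 to 0.056 for its set 1430950_at, -0.082 to 0.26 for Foxf2 (1418220_at), -0.063 to 0.10 for Foxd2 set 1450289_at, and -0.044 to 0.27 and -0.014 to 0.29 for Tcf7l2 sets 1429427_s_at and 1426639_a_at. Repeated quantile normalization and median centring changed no call of a member gene. Of the 25 member probe sets, 6 lay below the array medians, where a difference may be understated.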
